A study of Mus musculus with 6 samples.

Results

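Ctss and H2-DMb2 code for proteins that act at successive steps of peptide loading onto MHC class II molecules. Both were taken from the authors' deposited table of changed genes by their symbols, and each had 1 probe set there, 10494271 for Ctss and 10444236 for H2-DMb2. They are 2 of the 225 different named genes of that table, and their 2 probe sets are among 35557 measured in all. The cells were a mouse pro-B line transformed by Abelson murine leukaemia virus, whose v-Abl kinase keeps B cell precursors dividing in culture. All cultures carried a retrovirus encoding Gfi1b, a zinc finger repressor of blood cell precursors, joined to the oestrogen receptor domain. The tested cultures (n = 3) were kept for 12 h in tamoxifen, which activates proteins joined to that domain, and the control cultures (n = 3) were untreated. The labels describe 1 line, and no tamoxifen-treated cells without the fusion were analysed here, so tamoxifen itself and the activated fusion cannot be told apart. Gfi1b had no named row and was not analysed here.

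MHC class II molecules are assembled in the endoplasmic reticulum with the invariant chain, which fills the peptide groove and directs the complex to endosomes. There proteases cut the invariant chain down to a short fragment, CLIP, and cathepsin S, the product of Ctss, makes the last cuts in B cells and dendritic cells. The H2-M protein, a dimer of an H2-DMa chain and an H2-DMb chain, then releases CLIP and lets antigenic peptides bind. In the mouse the beta chain has a pair of genes, H2-DMb1 and H2-DMb2. Class II genes are low in early B cell precursors and high in mature B cells.

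The genes lie apart in the genome. The authors' deposited table places Ctss in band F2.1 of chromosome 3 and H2-DMb2 in band B1 of chromosome 17, in the MHC. Their promoters are shown because Gfi1b binds DNA, and because class II genes share boxes by which a promoter can be recognised. Both genes had a window in the RefSeq table (GRCm38.p6), reaching from 250 bases before a transcript start to 50 after it. The Ctss window is chr3:95526536-95526835, plus strand, and the H2-DMb2 window is chr17:34144999-34145298, plus strand. The H2-DMb2 window belongs to a transcript start inside the annotated span of the gene, not to its outermost start. Capitals mark AATC, the core bound by Gfi1 family zinc fingers, on either strand, so that GATT marks it on the minus strand.
Ctss promoter: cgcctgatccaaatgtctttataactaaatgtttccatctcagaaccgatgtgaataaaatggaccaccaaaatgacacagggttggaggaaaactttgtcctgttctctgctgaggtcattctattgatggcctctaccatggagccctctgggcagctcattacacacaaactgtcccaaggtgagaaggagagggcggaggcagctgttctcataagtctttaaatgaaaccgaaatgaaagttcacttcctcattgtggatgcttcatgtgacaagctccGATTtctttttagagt
H2-DMb2 promoter: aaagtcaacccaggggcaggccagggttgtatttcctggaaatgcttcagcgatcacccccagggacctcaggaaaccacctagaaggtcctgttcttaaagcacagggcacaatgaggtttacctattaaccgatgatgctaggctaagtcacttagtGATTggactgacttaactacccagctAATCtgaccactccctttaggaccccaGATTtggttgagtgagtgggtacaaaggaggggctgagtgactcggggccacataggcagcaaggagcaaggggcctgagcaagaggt
The Ctss window held AATC at 1 place, on the minus strand at positions 35 to 38 after the start. The H2-DMb2 window held it at 3 places, from -91, -65 and -38. These letters occur on either strand in 73.11% of all 32851 windows of that length, so a match says little about any single gene.

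Other matches differed between the windows. Ctss held GAAANNGAAA, the core of the interferon-stimulated response element, at -21 to -12, a match found on either strand in 3.44% of all windows. It also held GAGGAA, a core of sites for the Ets factor PU.1, at 2 places, of which 1 lay at the start itself. GAGGAA occurs on either strand in 28.28% of all windows. Neither motif was in the H2-DMb2 window, which says only that those letters are not there. H2-DMb2 held CCTANNAACNGATG on the plus strand at -127 to -114. This motif follows the X box of the human HLA-DRA promoter with 3 positions left free, and those were set after the beta chain windows had been seen. H2-DMb2 also held ATTGG, the core of the Y box, on the same strand at -90 to -86, where it overlaps an AATC match on the minus strand. On either strand CCTANNAACNGATG was in 6 of all 32851 windows. Of 37 windows of genes listed for MHC class II antigen processing it was in 2, those of H2-DMb2 and H2-DMb1. ATTGG was in 37.41% of all windows and in 19 of those 37. Neither motif was in the Ctss window. The stretches around these matches are printed with the matches in capitals, and that of H2-DMb1, the adjacent gene (chr17:34153090-34153137, plus strand), is set beside that of H2-DMb2.
Ctss, -24 to 9: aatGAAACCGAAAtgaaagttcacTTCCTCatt
H2-DMb2, -130 to -83: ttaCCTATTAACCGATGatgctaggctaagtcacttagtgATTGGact
H2-DMb1, -101 to -54: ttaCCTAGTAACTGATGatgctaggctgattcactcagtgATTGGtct
In both beta chain genes 23 bases separated the capitals, and 42 of the 48 bases of these stretches were identical. Over the whole windows the beta chain promoters were identical in 62.3% of aligned columns, against 49.3% for H2-DMb2 and Ctss. No site was measured in these data, and the matches describe letters alone.

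The values are log2 expression per probe set as deposited. Array medians lay between 7.52 and 7.56 with tamoxifen and between 7.53 and 7.60 in untreated cells. The arrays numbered 2 stood apart from the others of their groups. In 6667 probe sets numbered below the authors' table, the tamoxifen medians were 7.53, 7.31 and 7.48 and the untreated medians 7.26, 7.50 and 7.27, in the order of replicates 1 to 3. In these probe sets each array numbered 2 was like replicates 1 and 3 of the other group. The differences of Ctss and H2-DMb2 and the tests of the genes beside them are therefore also given without both of those arrays. The medians of these probe sets on the remaining arrays differ by group. In that fit a shift across whole arrays and the treatment therefore cannot be told apart. No measure of background per probe set was used here.

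Both genes were chosen because their difference between treated and untreated cells was large and opposite in direction. Their values in that contrast are therefore given as a description without a test.

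Ctss was lower in tamoxifen-treated cells. It had 8.97, 8.93 and 8.95 on the tamoxifen arrays, against 11.81, 11.77 and 11.72 on the untreated arrays (log2 expression, replicates 1 to 3). The groups lay far apart, and within each group the arrays were close together. The means were 8.95 ± 0.021 with tamoxifen and 11.77 ± 0.045 in untreated cells (SD, n = 3 each). The difference, tamoxifen minus untreated, was -2.82 with a standard error of 0.055 (limma), or a 7.05-fold lower level. Each of the 9 differences between a tamoxifen and an untreated array lay between -2.88 and -2.75. It was the most negative difference of all 35557 probe sets. Its SD within groups, pooled over both, was 0.035, and 4.81% of all probe sets had a smaller one. Without both arrays numbered 2 the difference was -2.80.

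H2-DMb2 was higher in tamoxifen-treated cells. It had 9.32, 9.08 and 8.95 on the tamoxifen arrays, against 7.79, 7.66 and 7.64 on the untreated arrays (log2 expression, replicates 1 to 3). The groups did not overlap, with a gap of 1.16 between the lowest tamoxifen and the highest untreated array. The tamoxifen arrays were more spread, and tamoxifen replicate 1 was the highest. The means were 9.12 ± 0.19 with tamoxifen and 7.70 ± 0.082 in untreated cells (SD, n = 3 each). The difference was 1.42 with a standard error of 0.11 (limma), or a 2.68-fold higher level. The 9 differences between a tamoxifen and an untreated array ranged from 1.16 to 1.68, so the fold is known less closely than that of Ctss. The pooled SD was 0.15, and 69% of all probe sets had a smaller one. It was the 10th most positive difference of all 35557 probe sets and the 4th among the named rows. Without both arrays numbered 2 the difference was 1.42. The untreated arrays lay near the median of all probe sets, and whether that is above background was not tested.

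**Figure D1:**
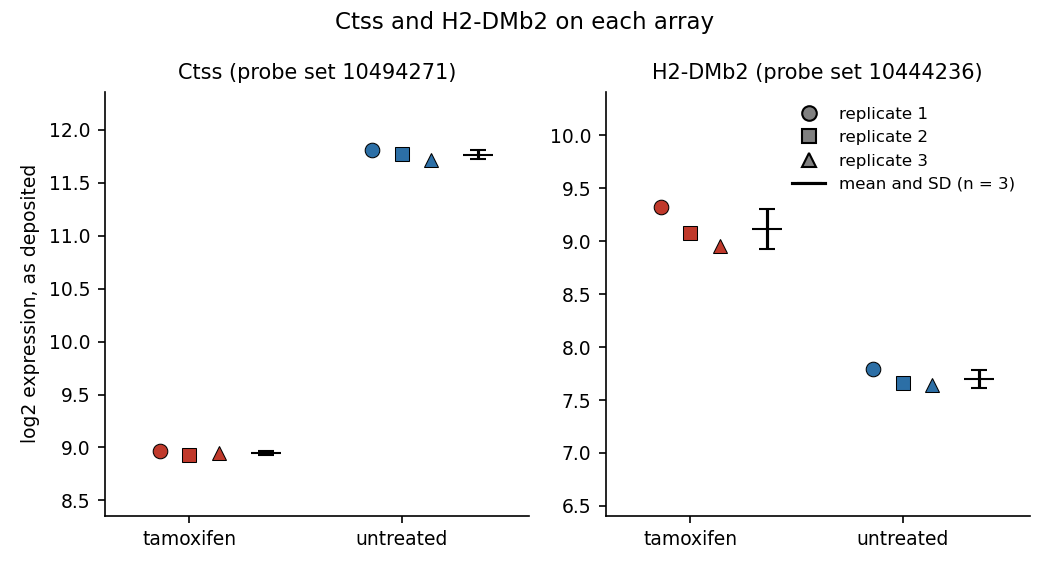
Log2 expression of Ctss (left) and H2-DMb2 (right) on each array, tamoxifen left of untreated in each panel. Symbols give the replicate number, and the bar beside each group is its mean with the SD (n = 3). Both panels span 4 log2 units on axes of their own. The Ctss groups are 2.75 apart at their closest and the H2-DMb2 groups 1.16 apart, in opposite directions.

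The groups did not overlap for either gene, which held for 18.3% of all probe sets, 10.5% with tamoxifen higher and 7.78% with tamoxifen lower. In the fit across all probe sets (limma, Benjamini-Hochberg adjusted p under 0.05) 0.433% of probe sets were called higher and 0.456% lower, 0.889% together. Ctss is among the 162 called lower and H2-DMb2 among the 154 called higher, and since both were chosen from this contrast nothing is read from that. Arrays of the same number gave differences of -2.84, -2.85 and -2.77 for Ctss and of 1.53, 1.42 and 1.31 for H2-DMb2. The authors' deposited table gives signed folds of -7.09 for Ctss and 2.69 for H2-DMb2, where a minus sign marks a lower level with tamoxifen. RNA was taken from whole cultures, in which fewer cells of a kind and less RNA per cell cannot be told apart.

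**Figure D2:**
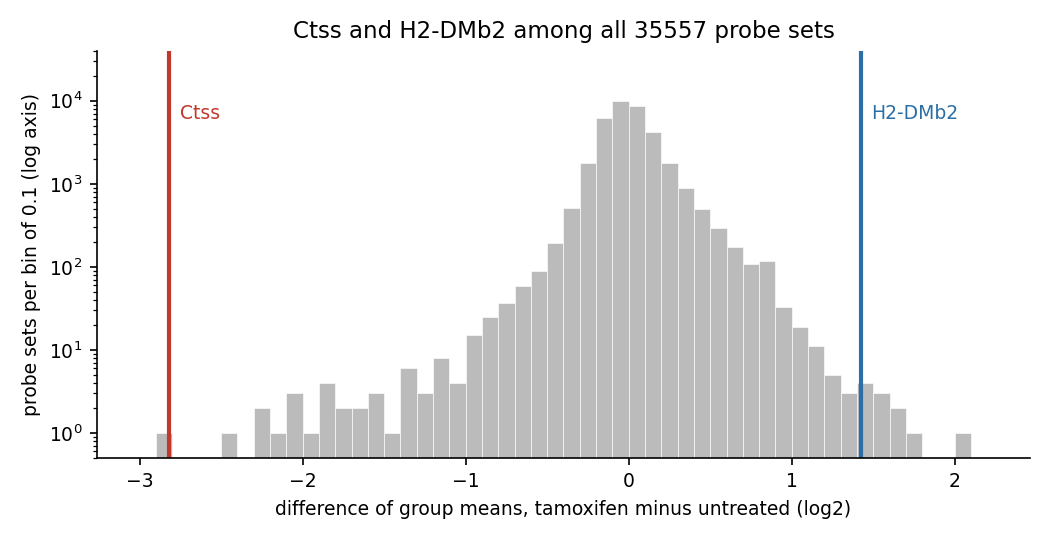
Differences of group means, tamoxifen minus untreated on the log2 scale, for all 35557 probe sets in bins of 0.1, with the number of probe sets on a log axis. The lines mark Ctss at -2.82, beyond every other probe set on the lower side, and H2-DMb2 at 1.42, within the upper tail.

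The rest of the pathway could be followed only where the table gave a name. Of 33 genes listed for MHC class II antigen processing, 3 had a named row, namely Ctss, H2-DMb2 and Ifi30. Of these 3, 1 was called higher (H2-DMb2, against 0.433% of all probe sets) and 1 lower (Ctss, against 0.456%). Ifi30 did not pass. The median of the 3 differences was that of Ifi30, 0.76, against -0.01 over all probe sets, and it shows no shared direction, since the 3 do not move one way. Because the authors selected the table's rows for their change on these arrays, neither the count nor the median is independent evidence of a direction. The class II alpha and beta chains, the invariant chain Cd74, the transactivator Ciita, H2-DMa, H2-DMb1 and the other listed genes were not analysed here. H2-DMa and H2-DMb1 lie directly beside H2-DMb2 in RefSeq's gene order. The beta chain genes are similar in sequence, so the H2-DMb2 probe set may also detect H2-DMb1 transcripts. The table's annotation cells end at 80 characters, which leaves any further transcript of that probe set unseen.

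Cst7, Ifi30 and H2-T24, the named genes of the antigen presentation and protease lists beside Ctss and H2-DMb2, had higher means with tamoxifen, opposite to Ctss. Cst7 codes for cystatin F, an inhibitor of cysteine cathepsins in endosomes and lysosomes. It had 11.01, 10.91 and 10.87 on the tamoxifen arrays, against 10.19, 10.24 and 9.90 on the untreated arrays (log2 expression). The lowest tamoxifen value was above the highest untreated one, which held for 10.5% of all probe sets. Cst7 rose by a difference of 0.82 ± 0.10 (SE, n = 3 per group), or 1.77-fold (limma adjusted p = 0.027). The call is not firm, since it was kept in 1 of 6 fits that each left out an array, and without both arrays numbered 2 the adjusted p was 0.061 (limma). Of 32 listed genes of lysosomal proteases and membrane, Cst7 and Ctss were the 2 with a name, 1 called higher (0.433% of all probe sets) and 1 lower (0.456%). Both rows come from the table selected for change, and nothing is read from that count.

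Ifi30 codes for GILT, the reductase that opens disulphide bonds of antigens in endosomes before class II loading. It had 9.92, 9.93 and 9.66 on the tamoxifen arrays, against 9.21, 9.29 and 8.73 on the untreated arrays. Replicate 3 was the lowest in both groups. The difference of 0.76 ± 0.16 (SE, n = 3 per group) did not pass (limma adjusted p = 0.12), and without both arrays numbered 2 the adjusted p was 0.087 (limma). H2-T24, a class I-like gene of the MHC T region, was the 1 named gene of 26 listed for class I presentation. It had 9.08, 8.93 and 9.15 on the tamoxifen arrays, against 8.28, 8.41 and 8.25 on the untreated arrays. The tamoxifen arrays were all above the untreated ones, as in 10.5% of all probe sets. H2-T24 rose by 0.74 ± 0.082 (SE, n = 3 per group), or 1.67-fold (limma adjusted p = 0.020). It passed in 1 of 6 fits that each left out an array, and without both arrays numbered 2 the adjusted p was 0.033 (limma).

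**Figure D3:**
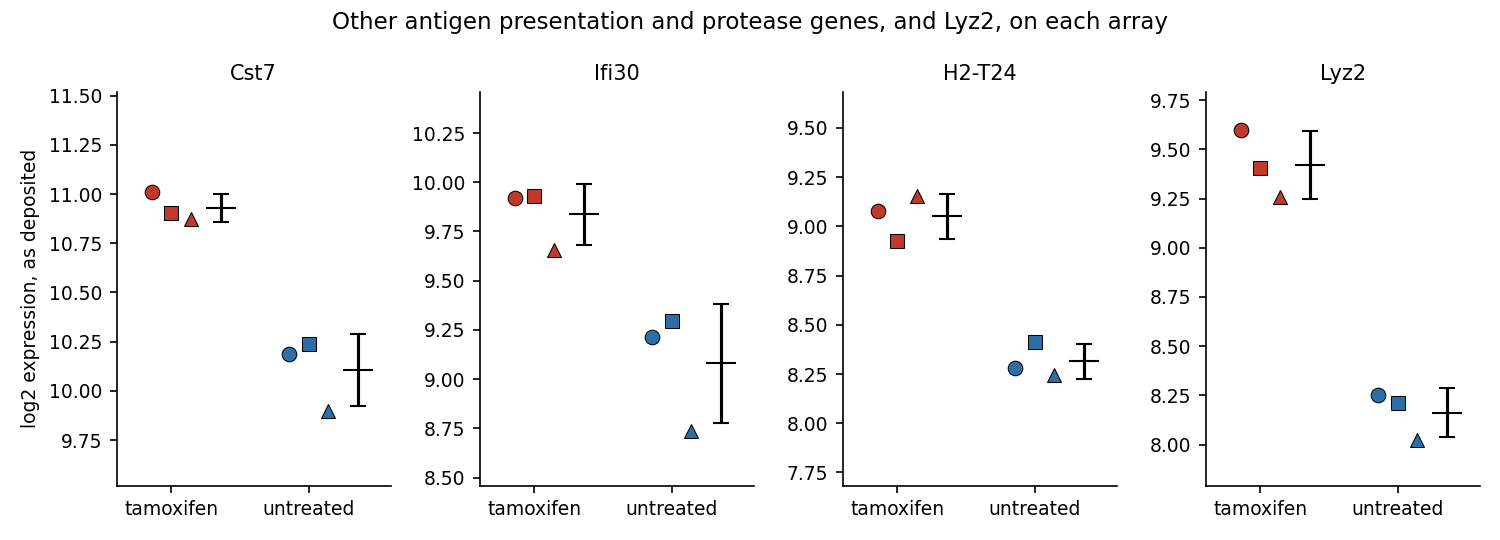
Log2 expression of Cst7, Ifi30, H2-T24 and Lyz2 on each array, tamoxifen left of untreated, with the mean and SD (n = 3) beside each group. Symbols are circles, squares and triangles for replicates 1, 2 and 3, and each panel spans 2 log2 units on its own axis. In all 4 genes the tamoxifen arrays lie above the untreated arrays, as in 10.5% of all probe sets, and Ifi30 did not pass the test. All 4 rows come from the authors' table selected for change.

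Cells that present antigen were looked for by their markers, since Ctss and class II genes are high in myeloid and dendritic cells. Lyz2, a lysozyme of myeloid cells, was the 1 named gene of 10 markers listed for myeloid and dendritic cells. It had 9.60, 9.40 and 9.26 with tamoxifen, against 8.25, 8.21 and 8.02 in untreated cells, in the direction of H2-DMb2 and opposite to Ctss. The difference was 1.26 ± 0.11 (SE, n = 3 per group, limma adjusted p = 0.011), and it passed in 4 of 6 fits that each left out an array. Without both arrays numbered 2 its adjusted p was 0.056 (limma). Its probe set may also detect the similar Lyz1. The other 9 markers were not analysed here, and the part of such cells in the results was not tested. Of 10 pro-B markers listed for the line itself, 3 were named, and they split. Rag1 and Rag2 of the V(D)J recombinase fell, with differences of -2.28 and -1.83 (limma adjusted p = 0.00082 and 0.0031), while the receptor chain Cd79b rose by 0.65 (limma adjusted p = 0.021). Another probe set of Rag2, at -0.72, missed the threshold (limma adjusted p = 0.060). Without both arrays numbered 2 the adjusted p was 0.029 for Rag1 and for Rag2 and 0.053 for Cd79b (limma). The remaining 7 were not analysed here. Among 6 mature B cell markers, the chemokine receptor Cxcr5 was named and rose by 1.02 (limma adjusted p = 0.0083), and it passed in 4 of 6 fits that each left out an array. Of 6 T and NK cell markers 2 were named. Tcf7 rose by 0.85 and Zap70 had a difference of 0.63 (limma adjusted p = 0.0060 and 0.078). Without both arrays numbered 2 the adjusted p was 0.037 for Cxcr5, 0.029 for Tcf7 and 0.059 for Zap70 (limma). No erythroid, megakaryocyte or stromal marker listed had a name in the table. Every named marker comes from the rows selected for change, so these directions are not independent evidence about a cell type.

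Neighbouring genes of the table did not follow 1 direction. The nearest named gene before Ctss in RefSeq's gene order was Mindy1, a deubiquitinase, with 11 genes between. It rose by 0.59 ± 0.061 (SE, n = 3 per group, limma adjusted p = 0.017), opposite to Ctss. The nearest after it was the tetraspanin Cd53, with 325 genes between and a difference of -2.26. The nearest before H2-DMb2 was the cytochrome P450 gene Cyp4f16, with 90 genes between, which rose by 0.71 ± 0.092 (SE, n = 3 per group, limma adjusted p = 0.031). The nearest after it was H2-T24, with 161 genes between. Mindy1 and Cyp4f16 each passed in 1 of 6 fits that left out an array, and neither passed without both arrays numbered 2 (limma adjusted p = 0.056 and 0.065). Genes between that have no name in the table were not analysed here. All 4 named neighbours come from the table selected for change, so their directions do not describe the genes around Ctss and H2-DMb2.

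The profile of each gene over the 6 arrays was set against those of the other 224 named genes, by the root mean square difference of log2 values after each profile was centred on its own mean. Gimap4, a GTPase of lymphocytes, was nearest to Ctss at 0.21, followed by Rag1 at 0.29, Cd53 at 0.36, the secreted protein Crisp1 at 0.37 and the Fc receptor-like Fcrl1 at 0.40. These distances exceed the pooled SD of Ctss. Its difference was the most negative of all 35557 probe sets, so no other profile could match it in size. Gimap4 averaged 9.99 ± 0.028 with tamoxifen and 12.42 ± 0.090 in untreated cells (SD, n = 3 each), a difference of -2.43. That of Rag1 was -2.28.

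Nearer profiles were found for H2-DMb2, whose difference was only the 10th most positive of all probe sets. Lyz2 was nearest at 0.098, a distance below the pooled SD of H2-DMb2. It was followed by the transcription factor Bhlha15 at 0.13, the interleukin 1 decoy receptor Il1r2 at 0.17, the collagenase Mmp13 at 0.18 and the kinase Camkk1 at 0.19. Bhlha15 averaged 9.71 ± 0.056 with tamoxifen and 8.48 ± 0.038 in untreated cells (SD, n = 3 each), a difference of 1.23. Lyz2 shared with H2-DMb2 the order of the tamoxifen arrays, with replicate 1 highest and replicate 3 lowest. Bhlha15, Camkk1, Cst7 and Cyp4f16 had that order too, and Il1r2 and Mmp13 did not, so it is not particular to Lyz2. In untreated cells replicate 1 was also highest and replicate 3 lowest for Lyz2 and H2-DMb2. Ctss and Cd79b had that untreated order too, so it is not particular to the pair. For Ctss and for H2-DMb2 no unnamed probe set of the 35557 lay nearer than the 5 named genes. The measure follows mainly the size of the treatment difference, and it is a description of these 6 arrays.

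**Figure D4:**
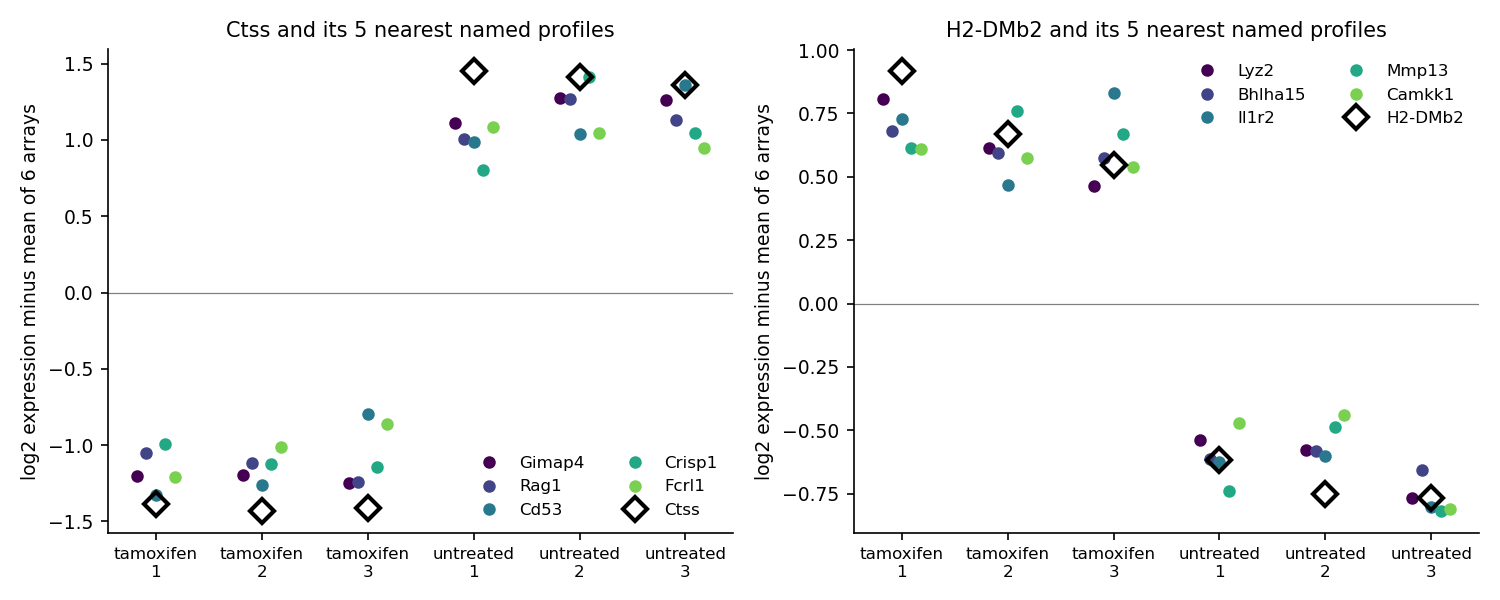
Log2 expression minus each gene's mean over the 6 arrays, for Ctss (left) and H2-DMb2 (right) as open diamonds and for the 5 named genes with the nearest profiles as dots, with the tamoxifen arrays left of the untreated arrays. Ctss lies further from 0 than its neighbours on every array but untreated replicate 3. The dots lie on both sides of H2-DMb2 on every array but tamoxifen replicate 1 and untreated replicate 2.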

How the data were processed

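Total RNA from 6 cultures was biotin-labelled for 1-colour arrays, per the labels' protocols, and titles placed each array in its group. The deposited matrix holds log2 expression per probe set. The base follows from the authors' folds, whose log2 differed from the fitted differences by at most 0.021. The submitters' processing notes name Partek and give it no role; the methods of background correction and normalization were not given in the sources used here. Beside it, the authors' deposited table holds, for 251 probe sets, a p-value, not used here, and a signed fold, used as a score. Symbols were updated through RefSeq (GRCm38.p6), 200 rows by accession, 13 by symbol and 19 by synonym; 8 kept their name and 11 had none.

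Differences were fitted with limma 3.58.1 in R 4.3.3 on all 35557 probe sets, with 2 groups and no covariate, and Benjamini-Hochberg adjustment at 0.05. Where the text gives an adjusted p, it is from this fit unless another fit is named beside it. The labels call the replicates biological; nothing says that they share a day. The number of arrays limits the precision. The procedure was checked on simulated data with independent noise for each probe set and array. No shift shared across an array was simulated, so that check does not cover the effect of such shifts on the calls. Promoters were searched in Python 3.11.15 and aligned with Biopython 1.88.

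Alternatives were the replicate block, single arrays left out, other scalings and filters, and array weights. Members, lists and rules were chosen with earlier results of these data known. The naming rule took both genes, every named member of the presentation and protease lists, the 5 nearest profiles and the nearest named gene on either side; markers came from fixed lists.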

Additional observations from a re-analysis of the deposited data

How the results depend on the processing

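Neither gene changed direction in any of 12 alternatives run for it, which shows little, since their change on the same arrays was the reason for choosing them. The Ctss difference ranged from -2.86 with quantile normalization to -2.78 with median centring; with 1 array left out it ranged from -2.84 to -2.80. That of H2-DMb2 ranged from 1.32 without tamoxifen replicate 1 to 1.50 without tamoxifen replicate 3. Each gene had 1 probe set, so no mean over probe sets could be taken.

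Counts of called probe sets, 154 higher and 162 lower, moved far more, and the cause was not tested beyond fewer arrays or probe sets. They were 6 and 16 with the replicate block, 270 and 232 without dim probe sets, 332 and 308 without the low-numbered probe sets, 410 and 311 when eBayes used an intensity trend and robust variance, and 814 and 376 with array weights. After quantile normalization they were 212 and 309, and after median centring 130 and 104. Without both arrays numbered 2, an alternative added after seeing the data, they were 247 and 85. Fits that each left out 1 array called between 9 and 278 higher and between 28 and 136 lower, the most of both without untreated replicate 2; leaving out any other array gave at most 24 and 41. Ctss and H2-DMb2 stayed the 1 lower and 1 higher called gene of the class II list, except that Ifi30 made 2 higher without the low-numbered probe sets and with array weights (limma adjusted p = 0.045 and 0.048).

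The replicate numbers are not shown to pair the arrays: for same-numbered arrays the correlations of deviations from the group mean were -0.23, -0.45 and -0.096. In this balanced design the replicate block cannot change a difference, so those of Ctss and H2-DMb2 remained -2.82 and 1.42. Their standard errors were 0.0785 and 0.0871 with the block, against 0.055 and 0.11 without it (limma). The calls of Cst7, H2-T24, Mindy1, Cyp4f16, Cxcr5, Tcf7 and Cd79b were lost with that block, with adjusted p between 0.11 and 0.19 (limma), and those of Lyz2, Rag1 and Rag2 were kept (limma adjusted p = 0.044, 0.031 and 0.040). Over 14 alternatives, added for these genes after seeing the data, Cst7 passed in 7, H2-T24 in 8 and Lyz2 in 11. Mindy1 and Cyp4f16 passed in 7 each, Cxcr5 in 11, Tcf7 in 13, Zap70 in 6 and Cd79b in 7. Rag1 and Rag2 passed in all 14 and Ifi30 in 2. No difference reversed. The replicate block, the filters of probe sets and the intensity trend leave each difference as first fitted, so none could reverse there. The values used hold no measure of background, so how dimness limits these results is not known.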
